A study of Mus musculus with 4 samples.

Results

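Wnt receptor genes are described here at the level of single adenosines of their mRNAs, with and without 8 h of dTAG13, in mouse retinal organoids. The 10 genes were chosen by name: the Frizzled receptors Fzd1, Fzd2, Fzd3, Fzd5, Fzd7 and Fzd8, the coreceptors Lrp5 and Lrp6, and the membrane ubiquitin ligases Znrf3 and Rnf43. Every site that the deposited tables list under these names was taken, which gave 1572 positions, of 1076788 in all and of 833043 inside genes. The 10 genes are among 20001 with a listed site. Fzd2 was included because the level of one of its sites had already been seen to be lower with dTAG13 in these libraries, so its values are given as a description with no test.

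N6-methyladenosine (m6A) is written on mRNA mainly by a nuclear complex whose catalytic subunit is METTL3, and reader proteins bound to it can shorten the life of the transcript. Wnt ligands bind the cysteine-rich domain of a Frizzled receptor together with LRP5 or LRP6, and the signal stabilises beta-catenin. ZNRF3 and RNF43 ubiquitinate Frizzled receptors and remove them from the cell surface. In the developing eye, Wnt signalling is known for setting the boundary between neural retina and pigment epithelium and for maintaining the progenitors of the retinal margin.

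The organoids were grown from Rx:GFP cells, which report the retinal fate, with the degron FKBP12F36V and an HA tag fused to the C-terminus of endogenous METTL3, and the untreated organoids carry this allele too. dTAG13 directs proteins with this degron to the proteasome. On day 6 of differentiation the organoids received 125 nM dTAG13 for 8 h (dTAG13 replicates 1 and 2) or none (0 h, untreated replicates 1 and 2), and they were collected together. The genotype labels of the 4 samples name Mettl3, Mettl4, Mettl5 and Mettl6 in turn, while the growth protocol names Mettl3 for each. Whether the 2 libraries of a group came from separate cultures or clones is not stated, so p-values measure only the spread between these libraries, which may be technical.

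In GLORI, unmethylated adenosine is deaminated and read as G while m6A is still read as A, so a site's level is the percentage of its reads that carry A instead of G. The tables list a site from 15 reads, 5 of them with A, and from a level of 10%, and a position that is not listed can be unmethylated, below these limits or uncovered. The libraries listed 335607 and 350462 sites without dTAG13 and 220034 and 263069 with it, with 75 to 91 reads at the median site. At the sites of the 10 genes the median was 113 to 148 reads. Markers of retinal progenitors and the eye field were listed in all 4 libraries for 10 of 10 genes, with a summed coverage of 5218 and 6319 without dTAG13 and of 3550 and 5152 with it. Markers of pluripotency were also listed in all 4 libraries, 5 of 5, at 918 and 937 against 658 and 866. Of the markers of other cells, 2 of 5 for postmitotic neurons, 2 of 5 for pigment epithelium (Rpe65 was listed nowhere), 4 of 6 for mesenchyme and endothelium and 1 of 5 for endoderm were listed in all 4. Their summed coverages were 380 and 312 against 289 and 283 for neurons and 326 and 298 against 223 and 281 for pigment epithelium. Those of mesenchyme and endothelium lay between 255 and 352 in the 4 libraries, and those of endoderm were 195 and 26.0 against 29.3 and 197. A sum holds only the genes that the library listed, so it also varies with which genes were listed. The endoderm sums of 26.0 and 29.3 are those of Sox17 alone. The part of these other cells in the results was not tested. In bulk RNA, fewer cells of a type and less RNA per cell cannot be told apart.

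Over the 10 genes together, 489 and 508 sites were listed without dTAG13 and 379 and 399 after treatment. The means were 498.5 ± 13.4 and 389 ± 14.1 (SD, n = 2 each), a ratio of 0.780, and the dTAG13 libraries lay below both untreated ones. Over all genes the same ratio was 0.714. An exact permutation test of 2 against 2 libraries cannot give a p below 0.333, so none is given for such counts.

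Gene by gene the number of listed sites moved in both directions. The number was lower in both dTAG13 libraries than in both untreated ones for 5 of 10 genes, Fzd3, Fzd5, Fzd8, Lrp5 and Lrp6, where 44.6% of the 12520 genes listed in all 4 libraries did the same. It was higher for 2 of 10, Fzd1 and Znrf3, against 4.53% of all genes. Fzd2, Fzd7 and Rnf43 had overlapping numbers. The median ratio over the members was 0.867, and over all genes 0.714. Per 100 units of gene coverage, the deposited signal per gene, Fzd3 (74.0 and 65.6 against 74.4 and 54.8) and Fzd5 overlapped too. On that scale Fzd8, Lrp5 and Lrp6 stayed lower with dTAG13, and Fzd1 and Znrf3 stayed higher. The shares over all genes were not computed on that scale, so whether these members differ from other genes there is not known.

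Most positions were seen once. Of the 1572 positions, 1394 (88.7%, Wilson 95% interval 87.0% to 90.1%) appeared in 1 library alone, 157 in 2, 17 in 3 and 4 in every library. Over all genes 91.4% were listed in 1 library. The share listed once ran from 78.0% of the Fzd1 positions and 79.5% of those of Fzd2 to 94.2% for Lrp6, 96.3% for Znrf3 and 100% for Rnf43. Replicates shared 69 member sites without dTAG13 and 27 after treatment, a ratio of 0.391, where all genes gave 25086 and 11156, a ratio of 0.445. The level of a shared site differed between replicates by a median of 9.65 percentage points without dTAG13 and 7.85 with it, and by up to 73.9 points. A single level therefore says little, and sites listed in several libraries are given first below.

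**Figure D1:**
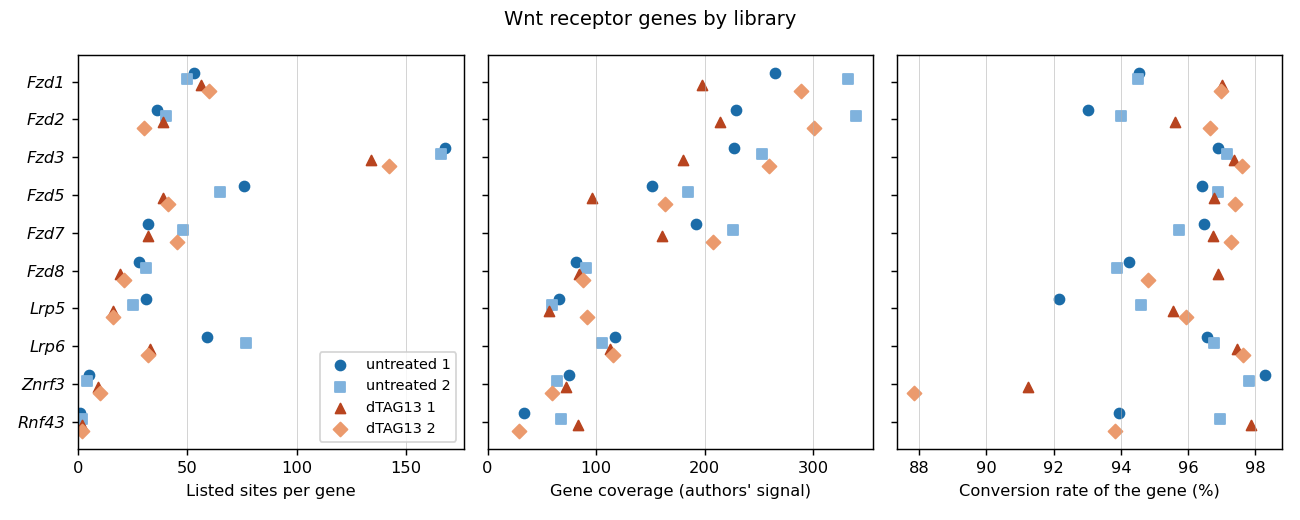
Listed sites, gene coverage and conversion rate (%) of the 10 genes in each of the 4 libraries, 1 point per library. Listed sites are fewer with dTAG13 for Fzd3, Fzd5, Fzd8, Lrp5 and Lrp6, and the conversion rate of Znrf3 is the only one that is lower in both dTAG13 libraries.

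Coordinates below are those of the tables. The submitters' processing notes name mm10, but for 6 of the 10 genes no listed position lies inside the gene's interval in RefSeq's GRCm38 table, while each gene's span of positions is no longer than its RefSeq length in 10 of 10. The build is therefore not settled here, and neither exon, intron, UTR nor sequence is given. Paired values are in the order of replicates 1 and 2. Bases along a gene are counted from its 5'-most listed position.

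Of the member sites, 4 were listed in every library, 1 each in Fzd2, Fzd3, Fzd7 and Fzd8. They are the ones at which both groups have 2 measured levels.

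Fzd2, an intronless receptor gene of the Frizzled family, was listed at 117 positions on the + strand between chr11:102495367 and chr11:102498828. The libraries listed 36 and 40 of them without dTAG13 and 39 and 30 with it, so the groups overlapped. Its site at chr11:102496378, 1011 bases from the 5'-most position, had a level of 99.7% and 99.6% (397 and 549 reads) without dTAG13 and of 14.3% and 19.7% (133 and 655 reads) with it. Almost every read carried A in the untreated libraries, and fewer than 1 in 5 did so in the dTAG13 libraries. The means were 99.7% ± 0.08 and 17.0% ± 3.82 (SD, n = 2 each), a difference of -82.7 percentage points. Wilson 95% intervals, which cover counting error only, ran from 98.6% and 98.7% upward in the untreated libraries, from 9.34% to 21.2% in dTAG13 replicate 1 and from 16.8% to 22.9% in dTAG13 replicate 2. Leaving out 1 library at a time gave differences of -85.4 to -80.0 points. The 133 reads of dTAG13 replicate 1 are the fewest behind these levels, and 24 other Fzd2 sites of that library had more reads.

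The site made up a smaller share of the A reads of Fzd2 with dTAG13. This share counts the same A reads as the level, so it is not separate evidence. It held 17.4% and 16.8% of all A reads at listed Fzd2 sites without dTAG13 and 0.994% and 6.47% with it. The other listed Fzd2 sites had a median level of 24.3% and 17.6% without dTAG13 and of 19.2% and 23.7% with it, and these overlap. Within 50 bases, 6 other positions were listed, at levels of 11.2% to 22.0%. The nearest, 6 bases downstream, was listed in untreated replicate 2 at 11.2% of 555 reads and in dTAG13 replicate 1 at 22.0% of 132 reads. These read numbers are close to the 549 and 133 reads of the main site in the same libraries.

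A further 8 Fzd2 sites were listed in 3 libraries or in both of 1 group. At 102496801 the level was 100% and 65.2% (95 and 187 reads) without dTAG13 and 20.8% (312 reads) in dTAG13 replicate 2. At 102496924 it was 43.3% (104 reads) in untreated replicate 1 and 19.3% and 35.7% (238 and 171 reads) with dTAG13. Each dTAG13 level at these positions is below the untreated ones. Another 5 sites were listed in both untreated libraries and in neither dTAG13 library. Their levels were 31.1% and 25.3% (663 and 585 reads) at 102495813, 11.2% and 12.2% (694 and 436 reads) at 102496256 and 10.5% and 23.8% (446 and 281 reads) at 102496293. Further along the gene they were 41.0% and 59.3% (at least 61 reads) at 102496684 and 17.7% and 27.4% (209 and 113 reads) at 102496883. The site at 102497151 was listed in both dTAG13 libraries and in neither untreated one, at 58.1% and 16.9% (74 and 207 reads), 2 levels far apart. Together 7 Fzd2 sites were shared by the untreated replicates and 3 by the dTAG13 replicates. A further 15 Fzd2 positions were listed in 1 library of each group, the neighbour 6 bases downstream of the main site among them. At some of these the dTAG13 level was the lower and at others the higher, so lower levels were not seen at every Fzd2 position listed in both groups.

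**Figure D2:**
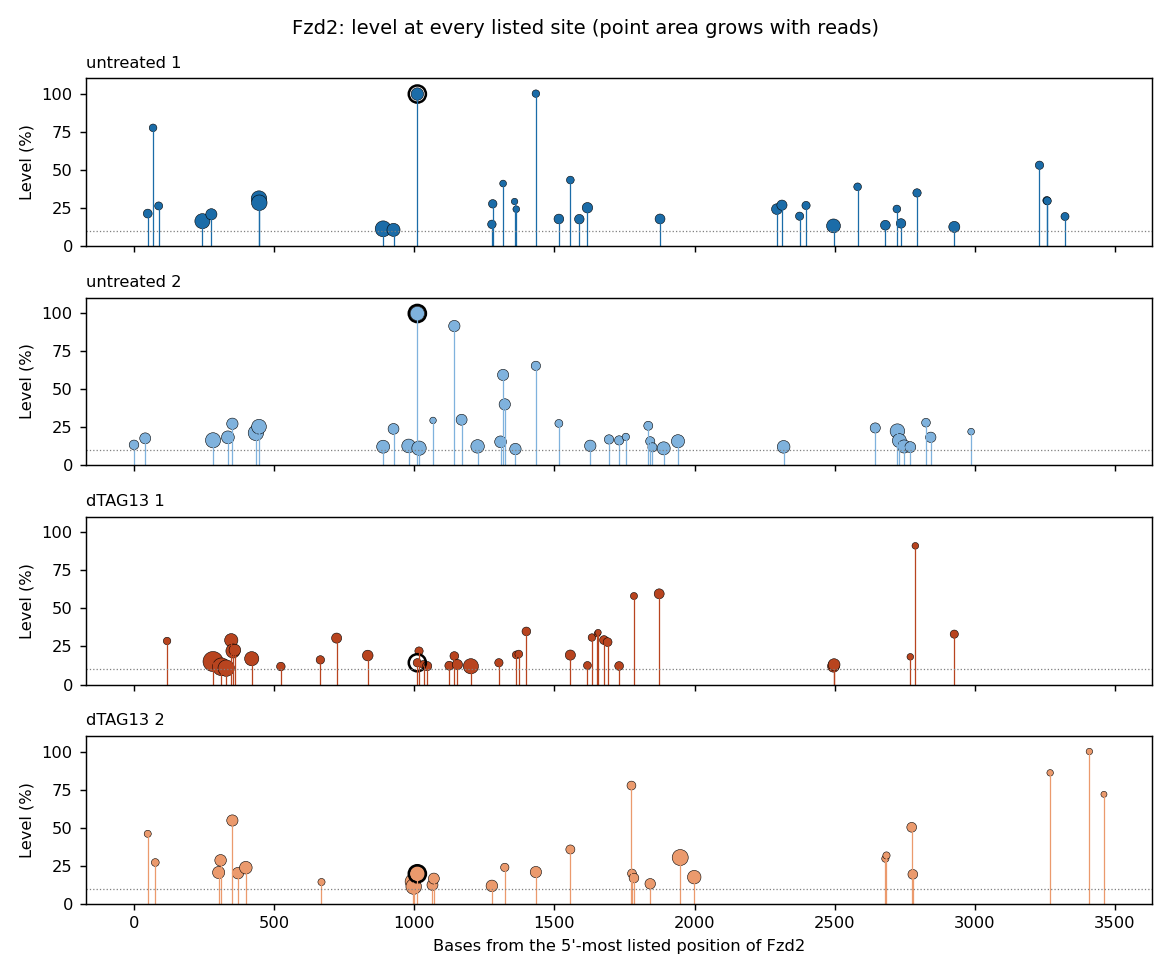
Level (%) of every listed Fzd2 site against its distance in bases from the 5'-most listed position, 1 panel per library, with a ring around the site listed in all 4 a dotted line at the 10% listing limit, and point area growing with reads. The ringed site is at or next to the top of both untreated panels and among the low sites of both dTAG13 panels.

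The site test covered the 2321 sites that every library listed with 20 reads or more, and 53 of them (2.28%) passed a quasi-binomial logistic test with limma-moderated dispersion at a Benjamini-Hochberg adjusted p under 0.05, 51 (2.2%) with a lower level after dTAG13. Of the 2321, 4 belong to the members. The Fzd2 site is given no test because this contrast chose the gene, and the other 3 did not pass, as given below. With any 1 of the 4 libraries left out, 0 of 2321 passed, with 196 to 217 at an unadjusted p under 0.05. Of 1192 other sites inside genes, the 5 closest to the Fzd2 site in their 4 levels, by Euclidean distance, were in 2610507B11Rik, Ankrd49, 2610524H06Rik, Kat6b and Tmem168. Their distances were 1.64, 5.73, 7.64, 8.18 and 9.24 percentage points, and the median over the compared sites was 116. The site of 2610507B11Rik had levels of 100% and 100% without dTAG13 and of 12.7% and 19.6% with it.

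Fzd7, also an intronless Frizzled gene, was listed at 140 positions between chr1:59521463 and chr1:59526092 on the + strand. The libraries listed 32 and 48 sites without dTAG13 and 32 and 45 with it. Its site at chr1:59526071, near the 3' end of the listed span at 4608 bases, had levels of 12.8% and 11.1% (133 and 189 reads) without dTAG13 and of 22.0% and 24.8% (123 and 206 reads) with it. Both dTAG13 libraries lay above both untreated ones, as at 17.8% of the tested sites. The difference was 11.4 percentage points, with means of 11.9% ± 1.18 and 23.4% ± 1.98 (SD, n = 2 each). It did not pass the quasi-binomial test with limma-moderated dispersion (p = 0.0156, adjusted p = 0.310). Fisher's exact test on reads summed over replicates, which leaves out the spread between libraries, gave an adjusted p of 0.00063, and the other alternatives gave 0.259 to 0.742.

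Of the Fzd7 sites, 7 were shared by the untreated replicates and listed in neither dTAG13 library, and 3 the reverse. Near the 5' end the pair at 59521743 and 59521753 had levels of 35.7% and 51.1% (28 and 47 reads) and of 60.7% and 51.1% (28 and 47 reads). At 59523905 the level was 82.9% and 94.3% (35 and 193 reads), the highest mean of these 7. Near the 3' end the deeply covered sites at 59525689 and 59525821 had 19.8% and 28.3% (655 and 593 reads) and 17.3% and 20.2% (433 and 568 reads), and replicates differed there by less than the 9.65 points of the median shared site. The site at 59524457 had 17.8% and 52.0% (101 and 50 reads), and the remaining one rested on 15 and 22 reads. With dTAG13 the sites at 59525699 and 59525764 had 21.7% and 28.6% (143 and 468 reads) and 21.3% and 12.5% (155 and 168 reads), and that at 59522267 had 50.4% and 100% (121 and 64 reads). The site at 59525699, seen with dTAG13, lies 10 bases from the one at 59525689, seen without it, so that neighbouring adenosines were each listed in 1 group alone.

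Fzd8, an intronless Frizzled gene known from the anterior neural plate, was listed at 84 positions between chr18:9212892 and chr18:9216179 on the + strand. The libraries listed 28 and 31 sites without dTAG13 and 19 and 21 with it, groups that did not overlap. The site at chr18:9215866 had levels of 18.4% and 23.8% (114 and 42 reads) without dTAG13 and 16.0% and 17.5% (194 and 63 reads) with it. Its difference was -4.40 percentage points, the groups did not overlap, and it did not pass the quasi-binomial test with limma-moderated dispersion (adjusted p = 0.894). Both dTAG13 libraries lay below both untreated ones at 19.4% of the tested sites.

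Fzd8 had 2 sites at near-complete levels in both untreated libraries. At 9214402 the level was 98.4% and 99.1% (61 and 110 reads) without dTAG13 and 38.0% (71 reads) in dTAG13 replicate 2. At 9215403 it was 97.2% and 100% (36 and 34 reads) without dTAG13, and the site was not listed with it. At both sites the untreated replicates lie within 3 points of each other. At 9214081 the level was 100% and 37.0% (96 and 216 reads) without dTAG13 and 41.8% (134 reads) in dTAG13 replicate 2, and here the untreated replicates differ by more than the dTAG13 library does from the lower of them. A further 5 were listed in both untreated libraries alone. Levels were 17.5% and 42.0% (166 and 81 reads) at 9213153, 15.2% and 27.5% (191 and 80 reads) at 9213167 and 71.6% and 93.0% (67 and 57 reads) at 9213215, all within the first 323 bases. Further on they were 35.2% and 79.7% (71 and 59 reads) at 9213912 and 18.8% and 20.5% (112 and 347 reads) at 9214124. No Fzd8 site was listed in both dTAG13 libraries alone.

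Fzd3, a receptor known for planar cell polarity and axon guidance, was listed at 550 positions between chr14:65429913 and chr14:65490904 on the - strand, the most of any member. The libraries listed 168 and 166 sites without dTAG13 and 134 and 142 with it. The decrease lay among sites of 10% to 40%, which numbered 137 and 136 without dTAG13 and 91 and 114 with it, while those of 40% to 90% numbered 23 and 22 against 30 and 21. Positions gathered in 6 blocks separated by more than 1000 bases, and the 3'-most block, 10440 bases long, held 451 of the 550. The site at chr14:65432489 in that block had levels of 11.0% and 14.9% (985 and 1252 reads) without dTAG13 and 10.1% and 12.8% (693 and 725 reads) with it. The groups overlapped, and the difference of -1.45 percentage points did not pass the quasi-binomial test with limma-moderated dispersion (adjusted p = 0.907). It lies close to the 10% listing limit, with 693 to 1252 reads the best covered of the 4 sites listed everywhere.

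Of the Fzd3 sites, 3 were listed in both untreated libraries and in 1 dTAG13 library. At 65473173 the level was 75.9% and 74.7% (294 and 584 reads) without dTAG13 and 18.8% (1143 reads) in dTAG13 replicate 2. At 65490495 it was 26.1% and 21.2% (326 and 477 reads) without dTAG13 and 10.7% (553 reads) in dTAG13 replicate 2. At 65431929 it was 21.8% and 10.8% (289 and 222 reads) without dTAG13 and 10.2% (108 reads) in dTAG13 replicate 1. At each of them the dTAG13 level lay below both untreated levels, and at 65473173 the untreated replicates were within 2 points of each other.

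Another 15 Fzd3 sites were listed in both untreated libraries and in neither dTAG13 library. In the first 409 bases from the 5' end, 65490542 had 100% and 92.0% (250 and 363 reads) and 65490643 had 29.8% and 91.8% (285 and 73 reads). In the block that begins 17538 bases in, levels were 27.4% and 25.7% (329 and 727 reads) at 65473189, 25.3% and 99.2% (174 and 608 reads) at 65473059 and 10.4% and 15.8% (163 and 95 reads) at 65472703. The site at 65490542 was near complete in both replicates, while at 65473059 and 65490643 the replicates disagreed by more than 60 points. In the 3'-most block the levels were 34.0% and 49.6% (200 and 276 reads) at 65439842, 21.8% and 10.4% (124 and 240 reads) at 65439734 and 11.8% and 12.7% (211 and 417 reads) at 65439423. A pair 16 bases apart had 54.1% and 10.6% (194 and 132 reads) at 65438839 and 10.4% and 33.7% (251 and 101 reads) at 65438823. Toward the 3' end they were 31.2% and 40.7% (80 and 27 reads) at 65436083 and 12.4% and 15.7% (145 and 254 reads) at 65435540. The last 3 were 24.7% and 23.5% (158 and 98 reads) at 65431163, 50.0% and 23.7% (28 and 194 reads) at 65430961 and 22.1% and 21.9% (190 and 128 reads) at 65430584, of which the first and the last had replicates within 2 points.

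A set of 8 Fzd3 sites was listed in both dTAG13 libraries and in neither untreated one. The highest was 65449580, at 45.9% and 74.9% (207 and 271 reads). At 65472534 the level was 46.2% and 23.6% (143 and 246 reads). The neighbours 65436583 and 65436575 had 14.2% and 21.1% (169 and 256 reads) and 21.1% and 11.4% (166 and 255 reads). Close to the listing limit, where a small change in level decides whether a site is listed, were 65435351 at 10.3% and 10.6% (399 and 851 reads), 65433438 at 14.6% and 14.8% (82 and 216 reads) and 65431915 at 11.1% and 12.7% (90 and 292 reads). The remaining site, at 65431855, had 50.0% and 18.3% (60 and 126 reads).

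Fzd1, an intronless Frizzled gene on the - strand between chr5:4803914 and chr5:4807705, was listed at 173 positions. The libraries listed 53 and 50 sites without dTAG13 and 56 and 60 with it, so that both dTAG13 libraries listed more. The added sites were of 10% to 40%, which numbered 40 and 37 without dTAG13 and 44 and 53 with it.

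No Fzd1 site was listed in all 4 libraries, and 8 were listed in 3, one of them with 18 reads in 1 library. At 4805908 the level was 93.5% and 100% (31 and 37 reads) without dTAG13 and 10.3% (78 reads) in dTAG13 replicate 2. At 4805538 it was 95.6% (338 reads) in untreated replicate 1 and 17.2% and 28.0% (192 and 332 reads) with dTAG13. At 4805424 it was 50.0% and 80.3% (170 and 482 reads) without dTAG13 and 23.8% (101 reads) in dTAG13 replicate 1. The dTAG13 levels of these 3 sites are all below the untreated ones. The same order held at 4805393, with 26.2% and 37.7% (206 and 438 reads) and then 11.0% (118 reads), and at 4804526, with 39.7% and 22.5% (78 and 80 reads) and then 19.6% (204 reads). It did not hold at 4804814, with 25.8% and 42.6% (504 and 263 reads) and then 37.3% (158 reads), or at 4804799, with 10.5% and 16.4% (507 and 225 reads) and then 22.7% (216 reads). At 4804799 the dTAG13 level was the highest of the 3.

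A set of 8 Fzd1 sites was shared by the untreated replicates alone. Toward the 5' end levels were 86.3% and 79.0% (51 and 167 reads) at 4806565, 63.1% and 47.5% (263 and 80 reads) at 4806142 and 11.1% and 14.4% (279 and 181 reads) at 4806138. In the middle, 4805328 had 23.7% and 24.5% (672 and 519 reads). Toward the 3' end they were 25.4% and 22.6% (244 and 296 reads) at 4804434, 21.4% and 45.2% (173 and 354 reads) at 4804389 and 10.7% and 21.0% (326 and 377 reads) at 4804188. The 3'-most, 4804136, had 33.9% and 26.9% (534 and 852 reads), and with 4805328 it is the best covered of these sites. Another 6 were shared by the dTAG13 replicates alone. Their levels were 46.1% and 29.4% (321 and 405 reads) at 4806694, 26.8% and 19.0% (41 and 137 reads) at 4806374 and 44.6% and 31.9% (65 and 69 reads) at 4805495. The remaining ones had 17.3% and 12.6% (255 and 294 reads) at 4804788, 22.5% and 29.0% (151 and 449 reads) at 4804425 and 16.0% and 30.2% (244 and 43 reads) at 4804327. None of these 6 reached 50% in either replicate, whereas 4806565 and 4806142 averaged above 50% without dTAG13.

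Fzd5, a receptor known for its part in eye development, was listed at 201 positions between chr1:64769740 and chr1:64776618 on the - strand. The libraries listed 76 and 65 sites without dTAG13 and 39 and 41 after treatment, a ratio of 0.567, and the groups did not overlap. Per 100 units of gene coverage the numbers were 50.0 and 35.3 against 40.5 and 25.1, which overlap. Sites of 10% to 40% numbered 51 and 47 without dTAG13 and 17 and 24 after treatment. Sites of 90% or more numbered 6 and 3 without dTAG13 and 10 and 7 with it, and most such sites were seen in 1 library. The median level of listed Fzd5 sites was 27.3% and 22.4% without dTAG13 and 47.6% and 28.3% after treatment, a median over different positions.

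The neighbouring Fzd5 sites 64774974 and 64774981 were listed in both untreated libraries and in 1 dTAG13 library. The first had 28.3% and 88.4% (166 and 147 reads) without dTAG13 and 36.4% (107 reads) in dTAG13 replicate 1. The second had 46.6% and 22.0% (163 and 164 reads) without dTAG13 and 16.2% (130 reads) in dTAG13 replicate 2. The dTAG13 level was below both untreated levels at the second and between them at the first. Of the rest, 8 were listed in both untreated libraries alone. Levels were 53.8% and 25.8% (52 and 194 reads) at 64775518, 11.0% and 14.7% (319 and 102 reads) at 64773691 and 21.7% and 38.5% (327 and 208 reads) at 64773613. In the 3' part they were 12.7% and 21.1% (181 and 228 reads) at 64772125 and 18.5% and 14.6% (189 and 178 reads) at 64771493. The 3'-most were 12.4% and 45.9% (105 and 270 reads) at 64770251 and 34.0% and 43.7% (156 and 213 reads) at 64770036, and the eighth rested on fewer than 20 reads. Another 2 were listed in both dTAG13 libraries alone, 64774640 at 95.8% and 96.3% (24 and 27 reads) and 64771073 at 17.8% and 10.0% (45 and 229 reads). The near-complete site at 64774640 is the one member site that both dTAG13 replicates listed above 90%. Another 6 were listed in 1 library of each group, and at each of these the dTAG13 level was the higher. Among them, 64771425 had 28.4% (116 reads) in untreated replicate 1 and 79.8% (386 reads) in dTAG13 replicate 2.

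**Figure D3:**
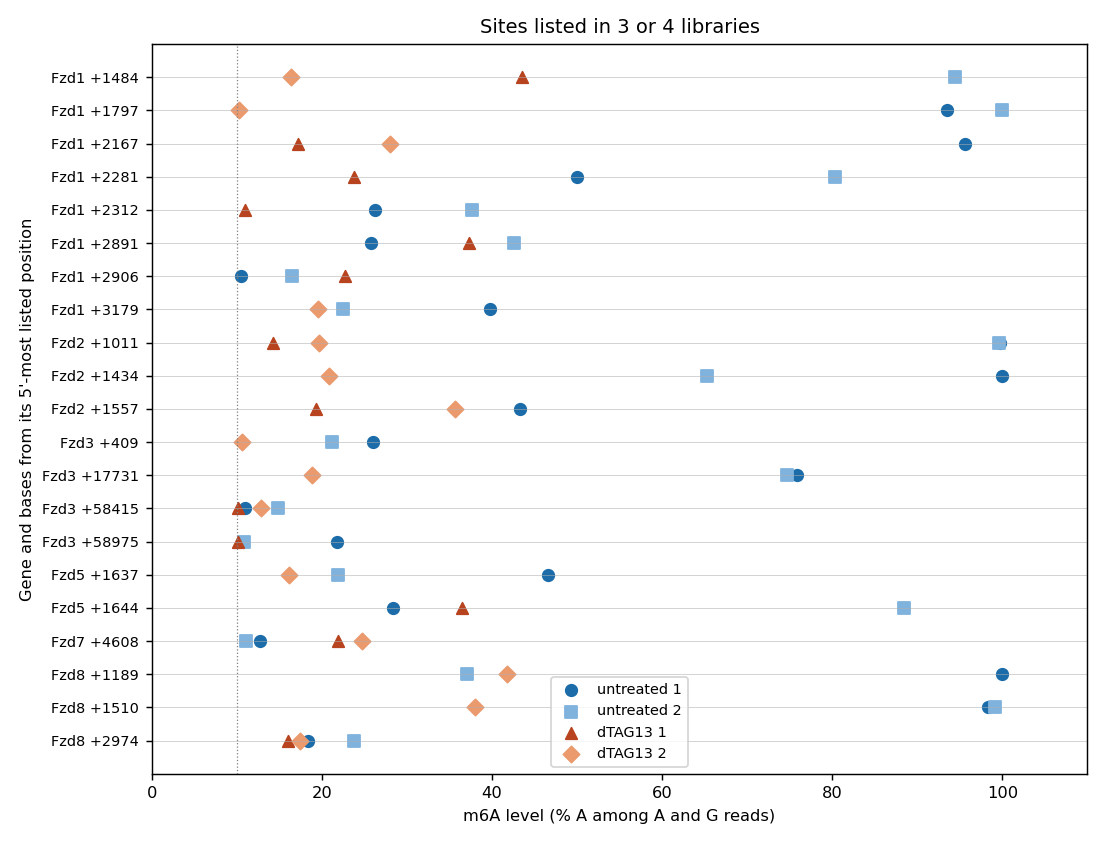
Level (%) of the 21 member sites listed in 3 or 4 libraries, 1 point per library and 1 row per site, labelled by gene and by bases from the 5'-most listed position. The dTAG13 points lie to the left of the untreated points in most rows, the Fzd2 site among them, and to their right at the Fzd7 site and at 1 Fzd1 site.

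Lrp6, the coreceptor whose phosphorylated tail recruits Axin, was listed at 190 positions between chr6:134423538 and chr6:134543607 on the - strand. The libraries listed 59 and 77 sites without dTAG13 and 33 and 32 after treatment, a ratio of 0.478 and the lowest of the 10 genes. Fewer sites were listed at every level, with 14 and 9 at 90% or more without dTAG13 and 5 and 8 with it. Positions fell in 16 blocks, and the 3'-most, 4469 bases long, held 141 of them. The untreated replicates shared 2 sites, neither listed with dTAG13, with 100% and 100% (193 and 158 reads) at 134427759 and 22.0% and 14.3% (118 and 154 reads) at 134424877. The first was read as A in every read of both replicates. No Lrp6 site was listed in both dTAG13 libraries, and 9 were listed in 1 library of each group. Among these, 134431680 had 100% (86 reads) in untreated replicate 1 and 100% (102 reads) in dTAG13 replicate 2, and 134423821 had 92.2% (64 reads) in untreated replicate 2 and 20.2% (312 reads) in dTAG13 replicate 1, both named after their values were seen.

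Lrp5, the other coreceptor, which is needed for retinal vessel growth, was listed at 83 positions between chr19:3635040 and chr19:3736438 on the - strand, in 21 blocks. The libraries listed 31 and 25 sites without dTAG13 and 16 and 16 after treatment, a ratio of 0.571. Sites of 40% to 90% numbered 9 and 6 without dTAG13 and 1 and 1 with it. No Lrp5 site was shared by the replicates of either group, and 5 were listed in 1 library of each. The neighbours 3650777 and 3650779 had 97.4% (38 reads) and 100% (38 reads) in untreated replicate 1 and 17.1% (105 reads) and 28.8% (104 reads) in dTAG13 replicate 1. These 2 sites, 2 bases apart, have nearly the same number of reads in each library and are not separate evidence. The best covered single value of Lrp5 was 14.8% of 256 reads at 3635281 in dTAG13 replicate 2. Sites at 3635040 and 3652282 had 32.3% (127 reads) and 40.0% (25 reads) in untreated replicate 2 and 18.9% (238 reads) and 12.0% (92 reads) in dTAG13 replicate 2. At 3670150 every read carried A in both libraries that listed it, 100% and 100% (26 and 31 reads).

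Znrf3, one of the ligases that clear Frizzled receptors, was listed at 27 positions between chr11:5226528 and chr11:5394389 on the - strand, 22 of them in the 3'-most block of 4116 bases. The libraries listed 5 and 4 sites without dTAG13 and 9 and 10 with it, so that its number went against that of the members as a whole. No position was shared by replicates. The one position seen in both groups, 5230643, had 19.6% (97 reads) in untreated replicate 2 and 25.0% (52 reads) in dTAG13 replicate 1. Of the sites with dTAG13, 6 and 6 were at 90% or more, against 4 and 1 without it, and the single-library sites had a median of 35.5 and 31.5 reads. The best covered site, 5226745, had 55.1% of 198 reads in dTAG13 replicate 1. In dTAG13 replicate 2, 4 nearby positions, 5229300, 5229302, 5229304 and 5229343, had 46.5%, 51.2%, 44.2% and 48.8% of 43 reads each.

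The conversion rate of a gene is the deposited share of A read as G, and which adenosines it counts is not stated. That of Znrf3 was lower with dTAG13. Whether it counts the added Znrf3 sites is not known, so it is not separate evidence. From 98.3% and 97.8% in untreated replicates 1 and 2 it was 91.2% and 87.9% in those with dTAG13, a mean difference of -8.49 percentage points. Of 12520 genes, 1 had a more negative difference. A lower conversion rate leaves more unmethylated A unread as G, and its part in the added sites was not tested.

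Rnf43, the paralogue of Znrf3, was listed at 7 positions between chr11:87618854 and chr11:87625611 on the + strand. The libraries listed 1 and 2 sites without dTAG13 and 2 and 2 with it, each position in 1 library. The best covered, 87625611, had 21.8% of 101 reads in untreated replicate 2. At this depth no comparison of Rnf43 sites between the groups could be made.

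For the other members the conversion rate was mostly higher with dTAG13. Both dTAG13 libraries lay above both untreated ones for 7 of 10 members, Fzd1, Fzd2, Fzd3, Fzd7, Fzd8, Lrp5 and Lrp6, where 40.9% of all genes did so. They lay below for 1, Znrf3, where 6.05% of all genes did so. The rate of Fzd2 was 93.0% and 94.0% without dTAG13 and 95.6% and 96.6% after it, which is 2.61 percentage points higher, and 91.3% of genes had a smaller difference. Fzd1 had 94.5% and 94.5% and then 97.0% and 97.0%, a difference of 2.46 points. Lrp5 had 92.2% and 94.6% and then 95.6% and 95.9%, a difference of 2.37 points. The median difference was 0.884 points over the members and 0.666 over all genes. The rate and the listed levels come from the same libraries, so they are not separate measurements.

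Sites with a high level in both untreated libraries were followed into the dTAG13 libraries. Chosen on their untreated levels, near-complete sites have little room to be higher, and they include the Fzd2 site. Their counts are therefore a description, to be read beside those of all genes. In the untreated libraries 6 member sites averaged 90% or more, 1 each in Fzd1, Fzd2, Fzd3 and Lrp6 and 2 in Fzd8. With dTAG13, 3 of the 6 were listed in neither library, 2 in 1 library, at 10.3% in Fzd1 and 38.0% in Fzd8, and 1, the Fzd2 site, in both. Over all genes 2004 sites averaged 90% or more, and 1613, 305 and 86 of them were listed in 0, 1 and 2 dTAG13 libraries. Of 17 member sites averaging 40% to 90%, 12 were listed in neither dTAG13 library and 5 in 1. Of 46 averaging 10% to 40%, 36 were listed in neither, 7 in 1 and 3 in both. In these bands the share listed in neither was 70.6% and 78.3% for the members and 87.3% and 76.6% for all genes.

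The number of near-complete sites in each library did not follow this. Member sites of 90% or more numbered 64 and 44 without dTAG13 and 52 and 56 with it. Of these, 73.4% and 68.2% without dTAG13 and 90.4% and 91.1% with it were listed in 1 library, with a median of 25 to 34 reads. For all genes, the untreated libraries gave shares of 88.7% and 89.3%, and the dTAG13 libraries gave 92.7% and 93.2%. The member share was thus well below that of all genes in the untreated libraries and close to it in the dTAG13 libraries. The near-complete member sites listed in 2 or more libraries had a median of 86 and 91.5 reads without dTAG13 and of 25 and 41 with it.

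Where a member site was listed in both untreated libraries and 1 dTAG13 library, the dTAG13 level was the lowest of the 3 at 10 of 14 sites and the highest at 1. Over all genes it was the lowest at 41.3% of 3801 such sites and the highest at 31.3%. At the 3 member sites listed in both dTAG13 libraries and 1 untreated library, the untreated level was the highest each time, where this was so at 28.5% of 2265 sites over all genes. A dTAG13 level under 10% is not listed, so levels from 1 library can only be seen above that limit.

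The recovery of sites between libraries gives the same comparison for sites with at least 50 reads. Of 403 member sites of untreated replicate 1, 15.1% were listed in the other untreated library and 7.94% and 7.44% in the dTAG13 libraries. Of 416 of untreated replicate 2, the shares were 14.9%, 6.73% and 6.73%. The mean ratio of dTAG13 to untreated recovery was 0.480 ± 0.0400 (SD over the 2 reference libraries), and over all genes it was 0.557. Both reference libraries use the same dTAG13 libraries and the same untreated pair, so this SD does not measure the spread between libraries. Among sites of at least 40% the order turned, with 0.486 ± 0.256 for the members (0.667 and 0.304 by reference library) and 0.297 over all genes. Coverage at sites that dropped out was seen in part: of 102 pairs of a member site listed in both untreated libraries alone and a dTAG13 library, 29 had another listed site within 25 bases, with a median of 194 and at least 38 reads. Listed sites that close have similar reads, with a median fold of 1.08 over 596 pairs.

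**Figure D4:**
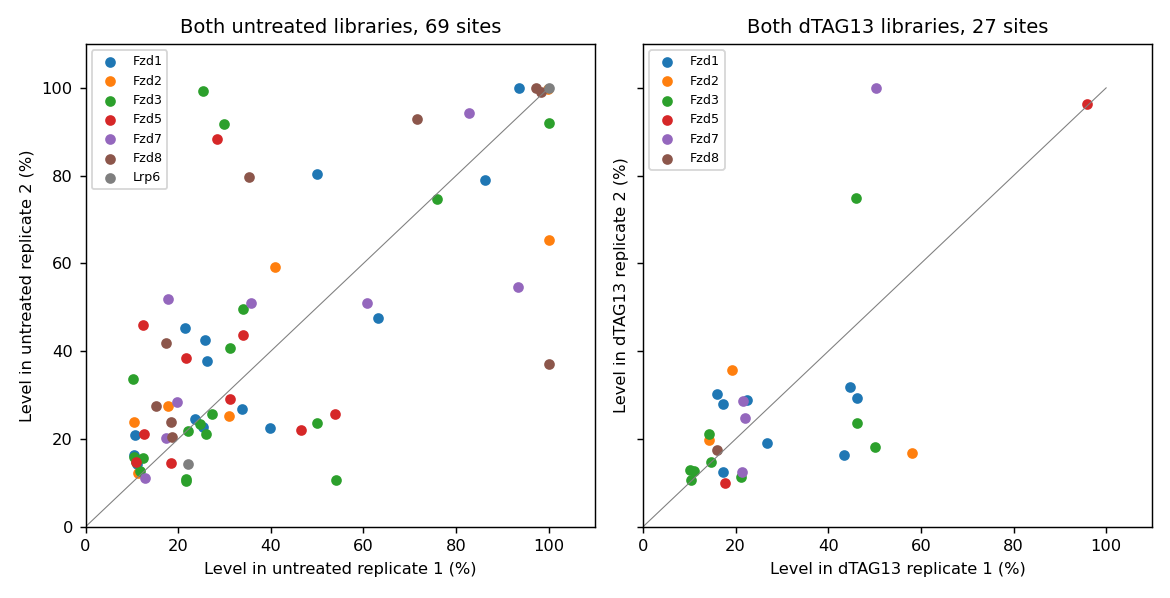
Level (%) in replicate 1 against replicate 2 for the member sites shared by the untreated replicates (69 sites) and by the dTAG13 replicates (27 sites), 1 point per site. Points near the top right corner, where both replicates read nearly all A, are in the untreated panel except for 1 Fzd5 site.

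Gene coverage, the deposited signal per gene that is not scaled to library depth, ordered the members from Fzd1 to Rnf43. Without dTAG13 it was 265 and 332 for Fzd1, 228 and 340 for Fzd2, 227 and 253 for Fzd3, 192 and 226 for Fzd7 and 152 and 184 for Fzd5. It was 118 and 106 for Lrp6, 81.5 and 91.0 for Fzd8, 75.0 and 63.8 for Znrf3, 66.2 and 59.8 for Lrp5 and 33.6 and 68.0 for Rnf43. Neighbours in this order overlapped from Fzd1 to Fzd3 and from Znrf3 to Rnf43, and did not from Fzd3 to Znrf3. How the signal depends on gene length is not given in the sources used here, so these are levels of the deposited signal, not of transcripts.

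With dTAG13 the coverage was 198 and 289 for Fzd1, 214 and 301 for Fzd2, 180 and 259 for Fzd3, 160 and 208 for Fzd7 and 96.2 and 164 for Fzd5. It was 113 and 115 for Lrp6, 84.1 and 87.7 for Fzd8, 72.5 and 59.3 for Znrf3, 56.2 and 91.4 for Lrp5 and 82.9 and 29.4 for Rnf43. Every member overlapped between the groups on this scale, and dTAG13 replicate 1 was the lower of its pair for 8 of the 10.

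After centring each library on its median over 12520 genes, none of these genes passed limma's test at an adjusted p under 0.05 (0%), and 1595 had an unadjusted p under 0.05, none of them a member. The log2 coverage of Fzd2 differed by -0.05 ± 0.25 (SE) between dTAG13 and untreated libraries. Those of the other Frizzled genes were -0.23 ± 0.21 for Fzd1 (limma, adjusted p = 0.660), -0.07 ± 0.20 for Fzd3 (0.902), -0.33 ± 0.23 for Fzd5 (0.555), -0.11 ± 0.20 for Fzd7 (0.842) and 0.08 ± 0.22 for Fzd8 (0.901). The coreceptors had 0.27 ± 0.22 for Lrp5 (limma, adjusted p = 0.616) and 0.11 ± 0.23 for Lrp6 (0.855). The ligases had 0.00 ± 0.30 for Znrf3 (limma, adjusted p = 0.995) and 0.13 ± 0.66 for Rnf43 (0.946). On the centred scale both dTAG13 libraries lay below both untreated ones for 2 of 10 members and above for 1, against 29.2% and 17% of all genes. The median log2 difference was -0.02 over the members and -0.07 over all genes. With standard errors of 0.20 or more, changes of the size of these differences could not be told from the spread between libraries.

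The other genes of the pathway were followed as a list of 55: receptors and modulators, ligands and their secretion, cytoplasmic components, nuclear components and targets. Of these, 45 were listed in all 4 libraries, and Lgr6 and Wnt10a were listed in none. None passed limma's coverage test at an adjusted p under 0.05, and 7 of 45 had an unadjusted p under 0.05, 2 of them lower, where 1595 of 12520 genes did. The 7 were Fzd10, Dvl1, Amer1, Bcl9l and Rnf146, which were higher with dTAG13, and Dvl2 and Ctnnb1, which were lower. The list was set to be described by counts, so the genes given with their values were not set in advance. Ctnnb1, which encodes beta-catenin, had a log2 coverage difference of -0.66 ± 0.21 (SE; limma, adjusted p = 0.363). Rnf146, a ligase that promotes Axin turnover, had 0.86 ± 0.23 (limma, adjusted p = 0.363), and the Wnt target Axin2 had -0.06 ± 0.21 (limma, adjusted p = 0.924). The median log2 difference was -0.08 over the list and -0.07 over all genes.

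Of the list, 8 sites were tested and none passed the quasi-binomial test with limma-moderated dispersion, nor had any an unadjusted p under 0.05. They were 3 in Gsk3a and 1 each in Dvl2, Csnk1d, Wnt7b, Lgr4 and Tcf7l1. The R-spondin receptor Lgr4 had levels of 25.1% and 23.5% without dTAG13 and 14.0% and 23.1% with it. Csnk1d had 46.6% and 14.3% and then 35.6% and 55.3%. The number of listed sites was lower in both dTAG13 libraries for 18 of 45 genes (40%) and higher for 1, where all genes gave 44.6% and 4.53%. The conversion rate was higher for 16 (35.6%) and lower for 1, where all genes gave 40.9% and 6.05%.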

How the data were processed

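GLORI of polyA RNA was compared between 2 untreated and 2 dTAG13 libraries, with groups taken from the sample titles. Per the file headers, the deposited counts are the A and G reads and the A reads of each called site, not normalised. The deposited fractions are the methylation level of a site and the conversion rate of a gene. The deposited coverage signal is 1 value per gene and library, with its scaling not given in the sources used here. The deposited p-values were used only as the listing limit of the authors, where the largest adjusted value was 0.00401. The build mm10 is from the submitters' processing notes, and the aligner, the caller and the treatment of duplicate reads are not given in the sources used here.

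Rows were matched by exact gene name. Sites that every library listed with 20 reads or more were tested with a quasi-binomial logistic model whose dispersion was moderated over sites (limma squeezeVar) and not allowed below 1, by a two-sided F test. Gene coverage was tested with limma on log2 values centred on the library median. Both used Benjamini-Hochberg adjustment over all features at 0.05 and were tested on simulated data. R 4.3.3, limma 3.58.1, Python 3.11.15, pandas 2.3.3 and scipy 1.17.1 were used. The sites given one by one are those listed in all 4 libraries, in 3, or in both of 1 group, with at least 20 reads in each, or else the best covered site. Other sites named for Fzd2, Fzd5, Lrp5, Lrp6 and Znrf3 are outside this rule and were not set in advance. The same holds for single genes and sites of the wider pathway list that are given with their values. Members, gene lists and this rule were chosen with earlier results of these data known. Alternatives were other tests, read minimums, no centring, a replicate block, stricter site limits and each library left out, and leaving out Fzd3 was added after the data were seen.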

Additional observations from a re-analysis of the deposited data

How the results depend on the processing

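Of the 2321 sites, 531 (296 lower, 235 higher) passed with Fisher's exact test on summed replicates, which leaves out the spread between libraries, against 53 in the quasi-binomial test. With the replicate block 0 passed (196 at an unadjusted p under 0.05), and without any 1 library 0 to 0 passed, with fewer residual degrees of freedom in each. Deviations of same-numbered libraries correlated at 0.0023 for log2 coverage and 0.0193 for site level, over 2 pairs. The replicate numbers thus showed no pairing in these measures, which cannot exclude a shared culture or batch. The block gave no coverage call either. Without centring, limma called 15 genes for coverage (9 lower, 6 higher) where centred values gave 0, none of them a member, and the median over all genes shifted to -0.15 log2. The ratio of listed member sites was 0.853 among sites of at least 40%, and it kept within its spread with each library left out. It was 0.757 without Fzd3. The ratio of recovery was 0.533 with at least 200 reads and 0.486 at levels of at least 40%, where all genes gave 0.297 at these levels. With 1 library left out, the Fzd3 site difference ranged from -3.39 to 0.50 points, and log2 coverage from -0.31 to 0.21 for Fzd2, -0.11 to 0.26 for Fzd8, -0.0826 to 0.31 for Lrp6, -0.83 to 1.09 for Rnf43 and -0.36 to 0.37 for Znrf3. Without centring, log2 coverage differed by -0.0043 for Fzd8 and by -0.0769 for Znrf3. The Fzd7 site passed under Fisher's exact test (adjusted p = 0.00063). The other alternatives kept direction and side of the threshold. Depth limits Rnf43, Znrf3 and Lrp5, whose median site had 23.5 to 91 reads in the 4 libraries. Fzd8 at 65.5 to 85 reads and Lrp6 at 72 to 95 were in or near this range. So was Fzd5 in dTAG13 replicate 1, at 63 reads.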
